A study of Mus musculus with 4 samples.

Results

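The gene set described here is the replication histone genes of the mouse, taken as every gene whose symbol begins with Hist1h, Hist2h or Hist3h. It holds 66 of the 32285 genes in the count tables. By the letters of their symbols, 6 encode the linker histone H1, 18 encode H2A, 18 encode H2B, 12 encode H3 and 12 encode H4. They were followed in single-cell RNA sequencing of CD45+ immune cells sorted by flow cytometry from the crypts of the small intestine. The mice had received a control diet (2 samples) or a cystine diet (2 samples), and the protocol calls the latter high-cysteine. Titles gave the diet, since "Control" stands in the treatment field of every sample; the genotype field reads "Male" for every sample, and strain, age, time on the diet and any shared allele or agent are not given in the sources used here. The labels do not say whether a sample came from 1 mouse or a pool, so p-values measure the spread between these samples, which may be technical.

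Replication histones supply the protein for newly made chromatin: pairs of H2A, H2B, H3 and H4 wrap the DNA of each nucleosome, and H1 binds the linker between nucleosomes. Their genes are switched on at the start of S phase through the coactivator NPAT, and most of their messages end in a stem-loop held by the protein SLBP in place of a poly(A) tail. The libraries were made from polyadenylated RNA, so a histone molecule was counted only if it carried a tail or was primed from an internal run of A. A minority of the genes, among them Hist1h1c, Hist1h2bc, Hist2h2be and Hist3h2a, are known to make polyadenylated messages as well. Intestinal crypts hold many intraepithelial T cells, most of which rest, while the epithelial cells beside them divide without pause.

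The stem-loop and the promoter are shown first. Members are grouped later by the annotated transcript end after the stem-loop, while their levels were not compared by promoter motif. Among the transcripts of the GENCODE vM21 annotation, 3 versions of the 16-base stem-loop were the most common. In the lines below, the capitals mark the 6-base arms that pair with each other and the lower case marks the 4-base loop.
Stem-loop of 26 members (H1, H2A, H2B and H3): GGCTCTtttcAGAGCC
Stem-loop of 6 members (H4): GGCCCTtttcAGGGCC
Stem-loop of 6 members (H1, H2B and H3): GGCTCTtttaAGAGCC

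RefSeq's promoter table (GRCm38.p6) had an entry for 61 of the 66 members, and the 150 bases before the start are printed for 6 members that carry the comparisons below, 1 or more from each histone class. Capitals mark any match, on either strand, to AAACACA (the H1 box), to the CCAAT box, to the TATA box as TATAAA, to the octamer as ATTTGCAT or to GGTCCG, an H4 element.
Hist1h1b (chr13:21780626-21780775, minus strand): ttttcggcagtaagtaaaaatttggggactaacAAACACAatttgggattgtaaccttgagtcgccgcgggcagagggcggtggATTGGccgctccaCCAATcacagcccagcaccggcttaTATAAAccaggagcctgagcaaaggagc
Hist1h1e (chr13:23622559-23622708, minus strand): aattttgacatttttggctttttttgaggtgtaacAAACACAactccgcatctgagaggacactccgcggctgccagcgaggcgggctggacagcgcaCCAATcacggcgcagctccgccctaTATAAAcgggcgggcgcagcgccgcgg
Hist1h2ae (chr13:23571221-23571370, minus strand): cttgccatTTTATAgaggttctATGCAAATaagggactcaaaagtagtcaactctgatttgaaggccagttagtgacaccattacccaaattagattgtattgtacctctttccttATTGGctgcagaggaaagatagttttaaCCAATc
Hist2h2bb (chr3:96269550-96269699, plus strand): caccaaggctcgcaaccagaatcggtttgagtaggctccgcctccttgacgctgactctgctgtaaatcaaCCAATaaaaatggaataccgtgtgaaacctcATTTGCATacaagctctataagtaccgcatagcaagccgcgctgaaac
Hist1h3c (chr13:23745522-23745671, minus strand): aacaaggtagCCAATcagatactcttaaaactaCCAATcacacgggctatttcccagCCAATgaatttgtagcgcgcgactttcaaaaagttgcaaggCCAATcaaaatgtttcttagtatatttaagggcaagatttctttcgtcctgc
Hist1h4d (chr13:23581418-23581567, plus strand): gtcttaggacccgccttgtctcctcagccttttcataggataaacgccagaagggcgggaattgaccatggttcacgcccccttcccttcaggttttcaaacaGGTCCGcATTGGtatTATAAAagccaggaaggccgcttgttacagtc

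Over windows from 250 bases before to 50 bases after the start, AAACACA was found in 5 of the 6 H1 promoters and in 7.18% of all 32851 promoters in the table. GGTCCG was found in 10 of the 11 H4 promoters with an entry, against 8.25% of all promoters. The octamer was found in 7 of 18 H2A and 7 of 16 H2B promoters, in none of the H1, H3 or H4 promoters, and in 1.74% of all promoters. The H2A and H2B counts share sites. The windows of Hist1h2ae and Hist1h2bg, on opposite strands, overlap and hold the same octamer. CCAAT was present in all H1, H2A, H2B and H3 promoters with an entry but in 3 of 11 H4 promoters, and in 37.4% of all promoters. TATAAA was present in 35 of the 61 (57.4%) against 13.6%. These are matches to letters and were not tested as binding sites.

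The control libraries held 16865 and 15391 barcodes and the cystine libraries 19351 and 16653 (replicate 1 first here and below, controls before cystine samples), with 27229695 to 31301936 UMIs (unique molecular identifiers, each standing for 1 captured molecule) per library. After cells with under 300 genes, over 10% mitochondrial UMIs or a high doublet score were removed, 58725 of 68260 cells were kept, with a median of 1294 to 1713 UMIs per cell. Each pair of libraries shared 251 to 329 cell barcode sequences. All but 1084 of the kept cells carried markers of T, B, plasma, plasmacytoid dendritic or myeloid cells, which are CD45+ types, while a UMI of at least 1 of 7 epithelial markers was present in 23.2% to 27.7% of the cells without an Mki67 UMI.

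Histone messages were few. Over the kept cells the 66 genes gave 31687 UMIs, 62 of them had at least 1 UMI, and 12 had between 1 and 19. No UMI was counted for 4 members: Hist1h1t, Hist1h2aa, Hist1h2ba and Hist1h2bq. The counts were concentrated, and the 5 leading members held 56.9% of the UMIs. Hist1h1e, a linker histone, led with 7400 UMIs (23.4%), followed by the linker histone Hist1h1c with 3656, Hist1h2ae with 2642, Hist1h4d with 2411 and Hist1h1b, another linker histone, with 1930. The 6 H1 genes thereby made up 46.3% of histone UMIs, against 20.1% for H2A, 13.0% for H2B, 7.14% for H3 and 13.5% for H4. A UMI counts a molecule at 1 end, so these shares were not scaled by length.

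Members were grouped by the annotated end of their transcripts. In 22 members the longest annotated transcript ran on for 100 bases or more after the stem-loop, and these had a median of 311.5 UMIs and held 71.9% of all histone UMIs. In 23 members it ended within 100 bases of the stem-loop, and these had a median of 58 UMIs and held 13.0%. The other 21 members had no stem-loop in their annotated transcripts, with a median of 80 UMIs and 15.03% of the total. Many of these transcripts are short, such as Hist1h2bl (381 bases), Hist1h2ai (393), Hist1h3i (411) and Hist1h4k (312), though Hist2h2be has 2620. In the short ones the annotation may stop before the stem-loop, so this group need not be a kind of transcript end. Among the leading members, the annotated transcript ran for 1153 bases past the stem-loop in Hist1h1e, 840 in Hist1h1c, 770 in Hist1h4d and 151 in Hist1h2ae. Hist1h1b, with 1930 UMIs, had no annotated stem-loop, and Hist2h2ac, with 1648 UMIs, belonged to the group with a short end. The classes overlapped widely, as the plot of UMIs by transcript end shows.

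**Figure D1:**
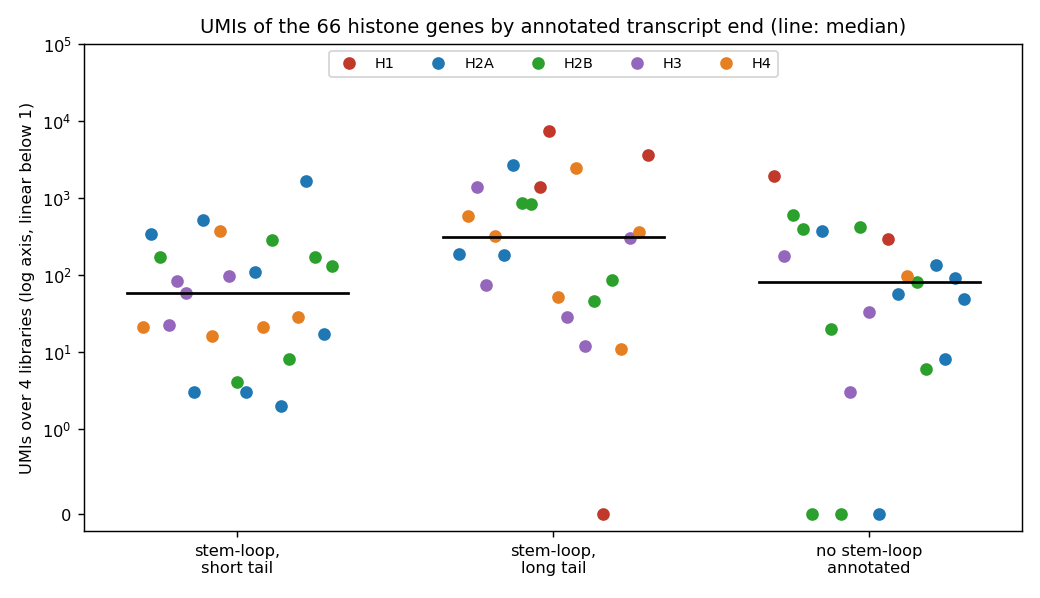
UMIs of each of the 66 histone genes over the 4 libraries (vertical axis, log scale above 1), grouped by the annotated end of the transcript (horizontal axis) and coloured by histone class; each point is a gene and each black line a group median. The median was 58 UMIs for a short end after the stem-loop, 311.5 for a long end and 80 where no stem-loop was annotated, and single genes of the 3 groups overlap.

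Copies of histone genes resemble each other, which bears on how reads could be assigned. In 30 of the 66 members, over 50% of the 60-base windows of an annotated transcript occurred in another histone gene as well. The share was 92.9% for Hist1h2ap, 68.0% for Hist1h3e and 57.0% for Hist1h2ab, and 0% for Hist1h1a, Hist1h1b and Hist2h2bb. Values of single genes in the first group are uncertain, since the counting may have split or dropped reads between copies.

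Dividing cells were taken as those with at least 1 UMI of Mki67, a gene transcribed in cycling cells and shut down in resting ones. They numbered 334, 226, 270 and 197 in the 4 libraries in that order. These were 2.29% (95% Clopper-Pearson interval 2.06 to 2.55), 1.68% (1.47 to 1.91), 1.65% (1.46 to 1.86) and 1.37% (1.19 to 1.57) of kept cells, with intervals that cover counting error only. Dividing cells were also deeper, with a median of 1809.5 to 2397.5 UMIs per library against 1288 to 1706 in the other cells. The 1027 dividing cells held 3.17% of all UMIs and 19.97% of histone UMIs (6328 of 31687).

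The summed level of the 66 genes was several times higher in dividing cells in every library. Dividing cells held 18.0 and 18.2 histone UMIs per 10000 UMIs with the control diet, and 27.2 and 16.5 with cystine. The other cells held 2.33 and 2.49 with the control diet and 2.85 and 2.91 with cystine, so the classes did not overlap. The ratio was 7.72, 7.29, 9.56 and 5.68 in the same order, with a mean of 7.56 ± 1.60 (SD, n = 4). The exact paired permutation test over the 4 libraries (two-sided) gave p = 0.125, which is the smallest that 4 pairs allow. In such sums, fewer cells with histone RNA and less histone RNA per cell cannot be told apart.

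All histone classes took part, in unequal measure. Summed H2A genes stood at 6.02 ± 0.535 UMIs per 10000 in dividing cells and 0.467 ± 0.0633 in others (mean ± SD, n = 4 libraries). H3 genes stood at 1.88 ± 1.43 against 0.172 ± 0.0331, and H1 genes at 8.95 ± 2.51 against 1.23 ± 0.187. H2B genes, at 1.69 ± 0.492 against 0.373 ± 0.0240, and H4 genes, at 1.44 ± 0.206 against 0.402 ± 0.0195, were nearer to their level in other cells. The wide spread of H3 in dividing cells lay in cystine replicate 1, at 4.01 against 0.934 to 1.36 in the other libraries.

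Gene by gene, 44 of the 66 members passed the low-count filter, and 22 did not. In edgeR's quasi-likelihood test with Benjamini-Hochberg adjustment and the library as a block, 36 of the 44 were higher in dividing cells at an adjusted p below 0.05 and 0 were lower. Over all 12805 genes tested, 11.7% were higher and 8.77% lower, and the median log2 fold change was -0.06. Of the 44, 20 passed the filter only through the sums of dividing cells, where they are high, so the difference itself decided that they were tested. Of the 24 that would have passed on the other cells alone, 19 were higher. The called members rose by 2.65-fold to 59.5-fold.

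All 5 linker histones tested were higher. Hist1h1b stood at 327 and 271 CPM (UMIs per 1000000 after TMM scaling) in dividing cells of the control libraries, and at 496 and 266 in those of the cystine libraries. In the other cells of the same libraries it stood at 8.53, 2.47, 16.4 and 7.99 CPM. Every dividing value lay above every other value, and the log2 fold change was 5.44 (SE 0.27, edgeR quasi-likelihood adjusted p = 8.49e-08). Hist1h1e, the most counted member, stood at 288, 278, 476 and 268 CPM in dividing cells against 52.2, 63.9, 74.3 and 75.4 in the others. Its classes did not overlap either, with a smaller log2 fold change of 2.28 (SE 0.14, edgeR quasi-likelihood adjusted p = 5.24e-07). Hist1h1c, known for a polyadenylated message outside S phase, stood at 71.0, 117, 138 and 70.1 CPM against 29.7, 41.6, 33.3 and 36.0. It had the lowest log2 fold change of the 5, at 1.47 (SE 0.16). Hist1h1d and Hist1h1a lay between, at 2.96 (SE 0.17) and 4.74 (SE 0.28). Hist1h1a passed the low-count filter only through its sums in dividing cells, so the difference itself decided that it was tested.

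Among core histones, Hist1h2ae was the most counted H2A gene, at 228, 341, 322 and 357 CPM in dividing cells and 17.5, 16.5, 15.1 and 21.1 in others. The groups were far apart, and the log2 fold change was 4.14 (SE 0.14), with the lowest adjusted p among the members (3.96e-09, edgeR quasi-likelihood test). Hist1h2ap, Hist1h2ab and Hist1h2ak gave log2 fold changes of 4.47, 4.72 and 3.86, and Hist2h2ac and Hist1h2ac gave 2.37 and 3.43. The H2B genes with most UMIs in dividing cells were Hist2h2bb (111), Hist1h2bj (95) and Hist1h2bm (71), and they gave 2.75, 3.89 and 4.42. Of these core histone genes, Hist1h2ab and Hist1h2bm passed the low-count filter only through their sums in dividing cells. Over all kept cells, Hist1h2be (867 UMIs) and Hist3h2ba (828) were counted more often than these H2B genes, and neither passed the test.

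Hist1h3c, an H3 gene with few molecules, passed the filter only through its sums in dividing cells. It stood at 14.0, 16.5, 24.0 and 15.4 CPM in dividing cells, from 12, 12, 20 and 11 UMIs, and at 0.227, 0.217, 0.532 and 0.196 CPM in the others, from 5, 5, 13 and 5 UMIs. The log2 fold change was 5.89 (SE 0.43, edgeR quasi-likelihood adjusted p = 2.74e-06), a value that the filter on dividing sums helped to select. Hist1h3e, the most counted H3 gene, stood at 45.4, 83.9, 233 and 39.2 CPM against 7.72, 11.4, 12.2 and 12.6. Its dividing value in cystine replicate 1 stood apart from the other 3, and its log2 fold change was 2.98 (SE 0.33). Hist1h3f and Hist1h3i gave 3.15 (SE 0.48) and 3.44 (SE 0.46).

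Among H4 genes, Hist1h4d, the most counted, stood at 52.4, 75.6, 87.7 and 72.9 CPM in dividing cells and at 22.4, 21.4, 23.8 and 24.2 in others, without overlap, for a log2 fold change of 1.64 (SE 0.14, edgeR quasi-likelihood adjusted p = 8.52e-06). Hist1h4i gave 2.27 (SE 0.24). Over all members of a class, tested or not, dividing cells held 10.5% of H4 UMIs, 13.1% of H2B, 19.4% of H1, 26.9% of H3 and 29.7% of H2A UMIs. The difference between classes was not tested.

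**Figure D2:**
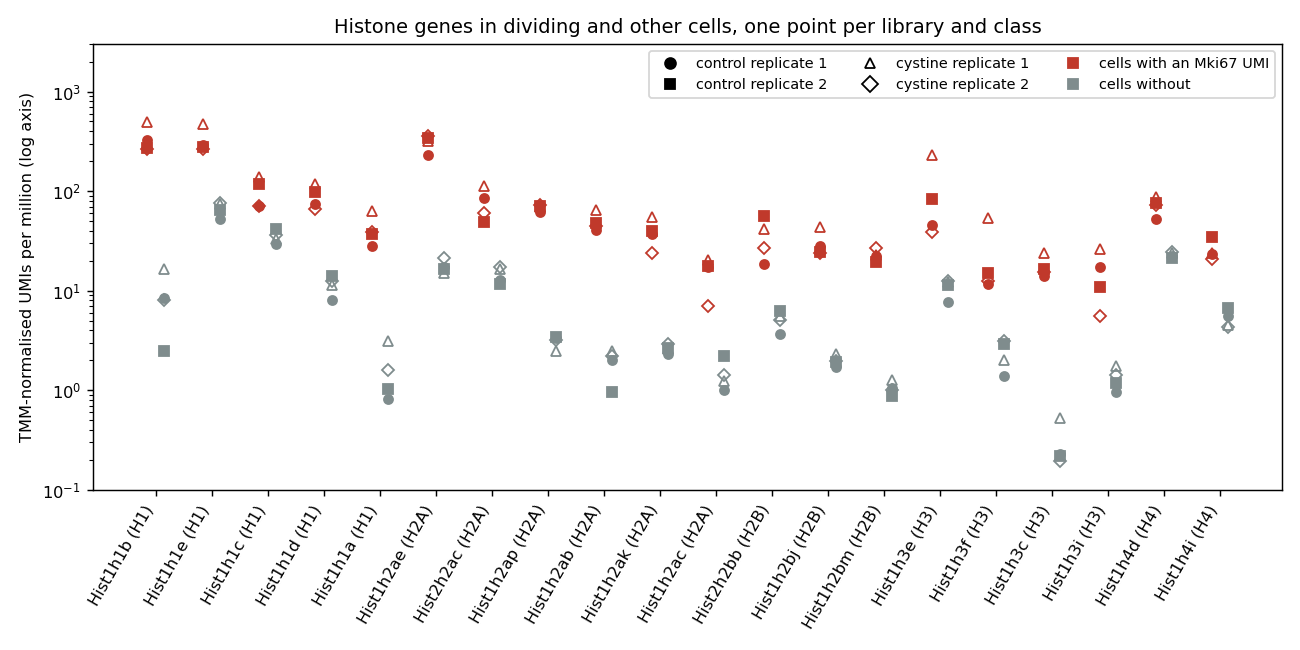
TMM-normalised CPM (vertical log axis) of the 20 histone genes with most UMIs in dividing cells, ordered by histone class; red points are cells with an Mki67 UMI, grey points other cells, and each point is 1 library (filled for control, open for cystine). Red points lie above grey points for each of these genes. Hist1h1b stood at 266 to 496 against 2.47 to 16.4, and Hist1h1c at 70.1 to 138 against 29.7 to 41.6. Ranking by UMIs in dividing cells favours members that are high there, so this order is partly set by the choice. Hist1h2be and Hist3h2ba, with 867 and 828 UMIs over all kept cells, fall outside it and did not pass the test. Hist1h1a, Hist1h2ab, Hist1h2bm and Hist1h3c passed the low-count filter only through dividing cells.

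Of the 44 tested, 8 members did not pass, and these were singled out after their values were seen. Hist3h2ba (log2 fold change -0.10, SE 0.39), Hist2h2be (0.07, SE 0.42) and Hist1h2be (0.70, SE 0.39) were not among the rare ones, with 168 to 275, 78 to 119 and 180 to 217 UMIs in the other cells of a library. Hist3h2a had 2 UMIs in dividing cells in all, both in cystine replicate 1, and 43, 37, 43 and 55 in the others, with a log2 fold change of -1.55 (SE 1.01, edgeR quasi-likelihood adjusted p = 0.321). The remaining members were Hist2h2ab (0.82), Hist2h4 (1.34, adjusted p = 0.0561), Hist1h2bg (1.45) and Hist2h2aa1 (2.03, adjusted p = 0.0545). Hist2h4 had 66 to 87 UMIs in the other cells of a library, while the other three had 92, 85 and 110 UMIs over all kept cells. Of the 4 members known to make polyadenylated messages, Hist1h1c and Hist1h2bc were higher (1.47 and 1.41), and Hist2h2be and Hist3h2a did not pass.

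The share of UMIs that came from dividing cells was also taken by transcript end, over all members and with no filter. Dividing cells held 26.1% of the UMIs of short-end members, 15.5% of those of long-end members and 36.1% of those with no annotated stem-loop. The last group may reflect where the annotation stops. Its share also leaned on 1 gene: Hist1h1b held 1930 of the group's 4763 UMIs, and 56.0% of the UMIs of Hist1h1b came from dividing cells. Single members did not keep to 1 order. Of the short-end members, Hist1h3c, with 74 bases after its stem-loop, gave a log2 fold change of 5.89. It passed the low-count filter only through dividing cells. Hist2h2ac, with 57 bases and many more UMIs, gave 2.37. Of the long-end members, Hist1h1e, with 1153 bases, gave 2.28 and Hist1h2ae, with 151, gave 4.14. The difference between the kinds was not tested.

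**Figure D3:**
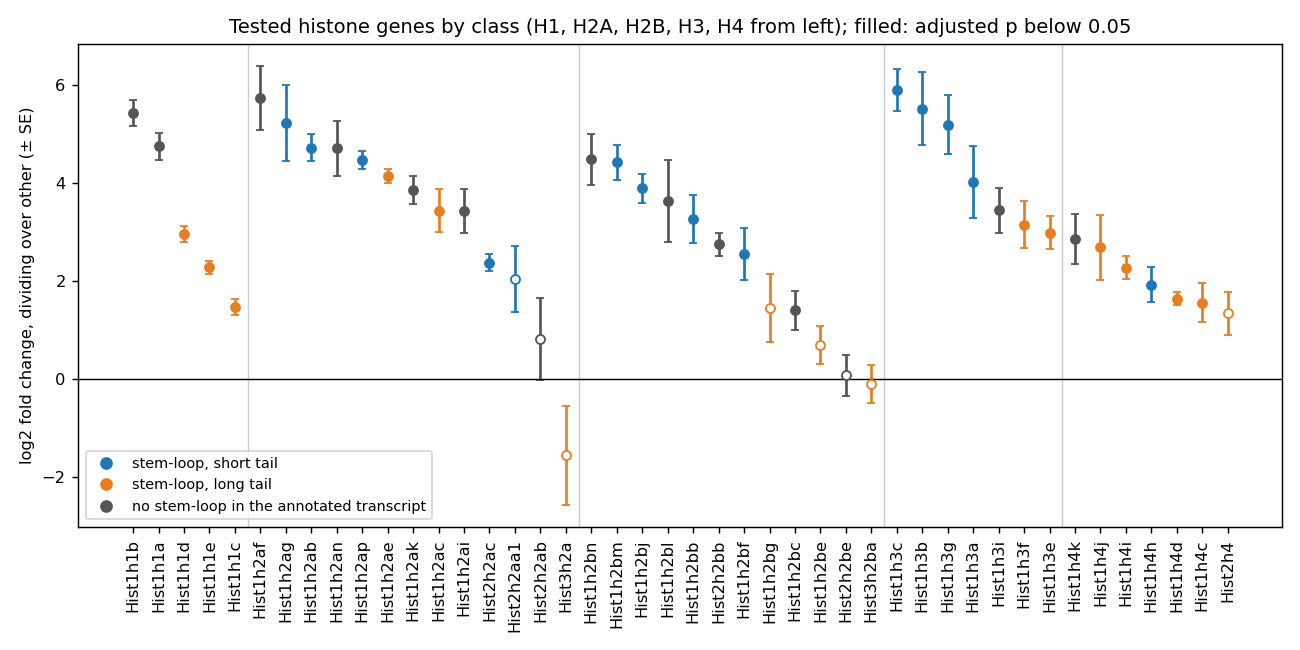
Log2 fold change of dividing over other cells with its standard error (vertical axis) for the 44 tested histone genes, ordered by class (H1, H2A, H2B, H3, H4) and coloured by annotated transcript end; filled points have an adjusted p below 0.05. The values run from -1.55 for Hist3h2a to 5.89 for Hist1h3c, and 36 of the 44 points are filled.

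Genes of the same process were taken from lists. Of 24 S phase genes 23 were higher in dividing cells (median log2 fold change 2.26), and all 27 genes of G2 and M phase were higher (4.93). Among 16 genes of histone message synthesis and processing, 3 were higher and 2 lower. Slbp, whose protein binds the stem-loop, rose by 0.76 on the log2 scale (SE 0.11, edgeR quasi-likelihood adjusted p = 0.000553), from 144 CPM in other cells to 242. Casp8ap2, a protein of the histone locus body, and Cpsf2, a subunit of the cleavage complex, were higher by 0.45 and 0.65. Cpsf3, the nuclease of the same complex, and Lsm10, part of the U7 particle, were lower, at -0.44 and -0.70. Npat stood at 20.4 CPM against 16.4 and did not pass (0.29, SE 0.23).

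Most replacement histones are made throughout the cycle from polyadenylated messages. Of 11, 9 were tested, 6 were higher and 1 was lower, with a median log2 fold change of 0.99. Cenpa, the centromeric H3, was higher by 2.91 and H2afx, which marks broken DNA, by 2.18. The abundant H2afz rose by 1.56, and H3f3a by 0.34, while H3f3b stood at 0.12 (SE 0.09) without passing and H2afj was lower, at -0.33. Of 12 histone chaperones 8 were higher, with a median of 0.82. Asf1b and Chaf1a, which deliver new H3 and H4 to replicating DNA, rose by 3.40 and 2.19. Hira, Daxx and Atrx, which serve replication-independent deposition, stood at -0.09, -0.21 and 0.10 without passing. These genes were picked from the list, and a split by role was not tested. Also in the list, Hjurp rose by 1.75, and Asf1a stood at 0.48 without passing.

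Markers of other cells differed between the classes too. Summed epithelial markers stood at 5.48 to 21.0 UMIs per 10000 in dividing cells and 2.49 to 4.15 in others, and 6 of 7 were higher. Of 7 markers of germinal centre B cells 4 were higher, at 0.953 to 6.27 per 10000 in dividing cells against 0.618 to 0.760. No marker of these lists was at 0 in any sum. All 3 T cell genes were lower, 0 of 7 Paneth cell genes passed, and erythroid genes stayed at or below 0.0755 per 10000. With cells holding an epithelial marker left out, 33 of 38 tested members were higher (7.80% of all genes). Within T cells alone, 33 of 42 were higher (8.06% of all genes). With every cell thinned to 1000 UMIs, 15 of 26 tested members were higher (2.17% of all genes). There the classes were set again from the thinned counts, so a cell that lost its Mki67 UMI counted among the others.

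A single barcode of cystine replicate 1 weighed on several members. It carried both T and B markers, 6 of 7 germinal centre markers and 10 Mki67 UMIs, and 466 of its 9101 UMIs (5.12%) fell in 32 histone genes. It held 124 of the 194 Hist1h3e UMIs, 33 of the 45 Hist1h3f UMIs and 17 of the 28 Hist1h2be UMIs in the dividing cells of its library. Without it the summed level of that library's dividing cells was 22.0 UMIs per 10000 in place of 27.2, and 36 members were still called higher. A second barcode, in cystine replicate 2, held 203 histone UMIs among 48000 UMIs together with 6 of 7 epithelial markers, and 37 members were higher with both left out.

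Counted by cells, 56.4% ± 4.67 (SD, n = 4 libraries) of dividing cells had at least 1 histone UMI, against 31.3% ± 3.50 of the others. Plasmacytoid dendritic cells without an Mki67 UMI served as a comparison class. In all, 0.474%, 1.55%, 1.03% and 0.654% of plasmacytoid dendritic cells had an Mki67 UMI. CD8 alpha beta T cells overlapped with this, at 1.45%, 1.92%, 1.09% and 1.32%. The class is a cell type with histone levels of its own, given below, and does not set a background level. Its cells without an Mki67 UMI had a higher share than the other cells, 35.8% ± 4.57, but also a median of 2482.5 to 3161.5 UMIs. Thinning to 1000 UMIs per cell left out 142 dividing, 14169 other and 36 plasmacytoid dendritic cells. The classes stayed as set before thinning. The shares were then 37.8% ± 4.38, 21.7% ± 1.83 and 15.02% ± 2.08. The dividing share thus lay above that of the plasmacytoid dendritic cells at equal depth, between 33.8% and 43.6% against 12.6% to 17.4%. The share of the other cells lay above that of the plasmacytoid dendritic cells in each library by a smaller margin, at 19.6% to 23.4%.

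Some cells without an Mki67 UMI carried other cycle genes. Among 57698 such cells, 13.2% had at least 3 UMIs of the S, G2 and M phase genes. The share was 25.2% among the 659 of them with a Hist1h1b UMI, 51.9% among the 27 with a Hist1h3c UMI, 18.9% among the 5370 with a Hist1h1e UMI and 16.03% among the 786 with a Hist3h2ba UMI. These cells were deeper than the rest, with medians of 1585, 2149, 1729.5 and 1769.5 UMIs against 1435, so depth and the member cannot be told apart here.

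Dividing cells were then split by whether they held more UMIs of the 24 S phase genes or of the 27 genes of G2 and M phase, and 237 ties were left out. The S-leaning cells numbered 177, 140, 132 and 132, and the G2/M-leaning cells 71, 37, 71 and 30. Abundant S phase genes were also counted in other cells. Rfc2 stood at 205 CPM in dividing and 155 in other cells, and Dut at 280 and 62.5. Of the G2 and M genes, Cks2 stood at 138 and 16.8 and Birc5 at 229 and 3.46. An S-leaning cell therefore need not be in S phase, and this was not tested. The summed histone level was lower in S-leaning cells in 4 of 4 libraries. It stood at 18.6, 17.4, 25.1 and 11.6 UMIs per 10000 in S-leaning cells and at 25.9, 24.8, 37.6 and 28.6 in G2/M-leaning cells. The exact paired permutation test gave p = 0.125, the smallest that 4 pairs allow.

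All 16 members tested had a log2 fold change below 0, with a median of -0.71 against 0.04 over all 5222 genes. A single member passed the test, where 1.15% of all genes were lower and 1.05% higher. Hist1h1e stood at 329, 230, 420 and 220 CPM in S-leaning cells and 477, 498, 763 and 480 in G2/M-leaning cells. The groups did not overlap, and it was lower by 0.91 on the log2 scale (log2 fold change -0.91, SE 0.18, edgeR quasi-likelihood adjusted p = 0.0408). Hist2h2bb and Hist1h2ap gave -1.27 (SE 0.31) and -1.11 (SE 0.27), both with an adjusted p of 0.0597. Hist1h1a, Hist1h2ak and Hist1h3e lay nearest to 0, at -0.25, -0.08 and -0.05.

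The number of members called lower was 8 of 9 tested members in T cells alone, where 2.20% of all genes were lower. It was 9 of 14 without cells holding an epithelial marker (2.58% of all genes), but 0 with the stricter cell filter (0.842%). It was 3 without control replicate 1 (6.92% of all genes) and 0 without any 1 of the other libraries. G2/M-leaning cells were deeper, with medians of 2531 to 3738.5 UMIs against 1847 to 2490.5, and the 7 epithelial markers had a median log2 fold change of -2.06 with 0 of 7 called. Their part in the difference was not tested beyond the counts above. Without the 2 barcodes named before, the S-leaning level of cystine replicate 1 was 14.2 and the G2/M-leaning level of cystine replicate 2 was 24.9, and 2 of 13 members were lower (1.49% of all genes). Of 9 replacement histones tested 5 were lower in S-leaning cells as well (median -0.87), and 0 of 11 chaperones passed (median 0.40).

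**Figure D4:**
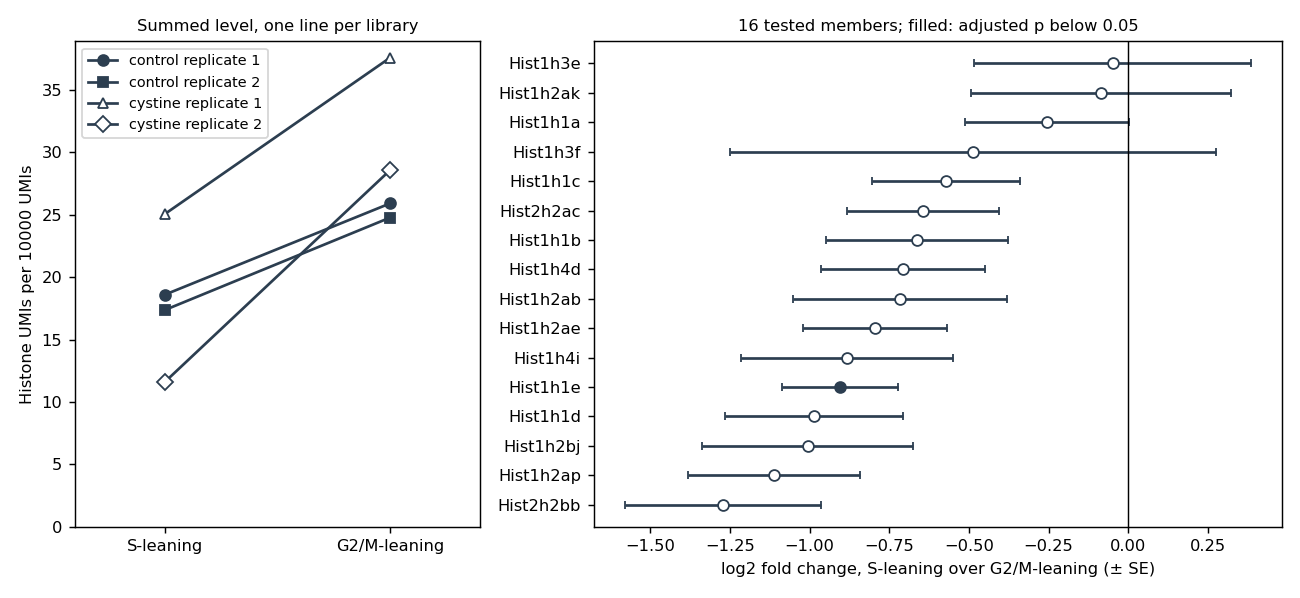
Left: summed histone UMIs per 10000 UMIs (vertical axis from 0) in S-leaning and G2/M-leaning dividing cells, 1 line per library; right: log2 fold change of S-leaning over G2/M-leaning cells with its standard error for 16 tested members, filled where the adjusted p is below 0.05. All 4 lines rise from S-leaning (11.6 to 25.1) to G2/M-leaning cells (24.8 to 37.6), and Hist1h1e at -0.91 is the filled point.

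Cell types were set by marker UMIs. Gamma delta T cells (T cells with a Trdc UMI; 18134 cells) and T cells with Cd8a but neither Cd8b1, Cd4 nor Trdc (Cd8a-only; 22637) made up most of the kept cells. CD8 alpha beta T cells numbered 3595, CD4 T cells 255, B cells 3214, plasmacytoid dendritic cells 1252 and myeloid cells 268. The summed histone level was 3.08 and 2.90 UMIs per 10000 in gamma delta T cells of control libraries, against 3.44 and 3.40 in those of cystine libraries. It was 2.70, 2.89, 3.29 and 3.21 in Cd8a-only cells and 2.52, 3.36, 2.73 and 2.95 in CD8 alpha beta T cells, so the 3 main T cell types overlapped. B cells held 3.43, 3.90, 4.88 and 4.01. Plasmacytoid dendritic cells held 1.48, 2.47, 1.85 and 1.80 and myeloid cells 0.855, 1.24, 1.62 and 1.96, and neither reached a T cell value of these 3 types. CD4 T cells spread widest, at 6.18, 13.6, 14.4 and 2.80, and a single cell held most of their histone UMIs in every library but cystine replicate 2. It held 62 of 84, 82 of 127 and 117 of 138, against 9 of 39 in that one, and without it the levels were 1.69, 5.33, 2.37 and 2.17.

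**Figure D5:**
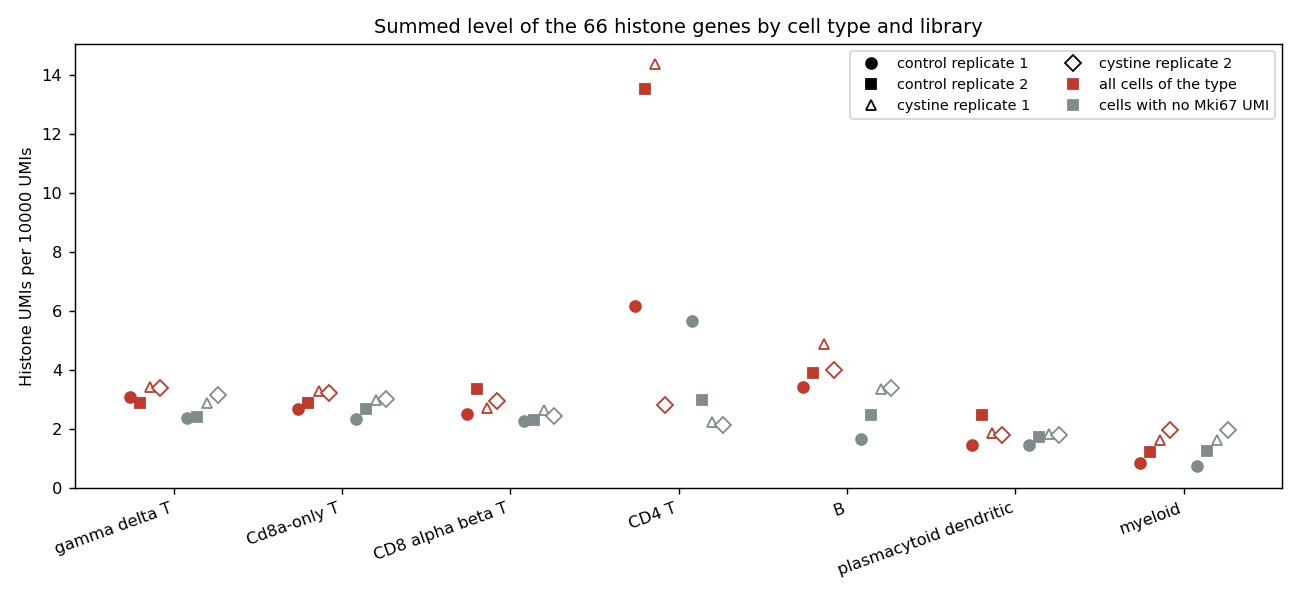
Summed histone UMIs per 10000 UMIs (vertical axis from 0) for 7 cell types; red points are all cells of the type, grey points those with no Mki67 UMI, and each point is 1 library (filled for control, open for cystine). Plasmacytoid dendritic (1.48 to 2.47) and myeloid cells (0.855 to 1.96) lie lowest, and CD4 T cells spread from 2.80 to 14.4.

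Against gamma delta T cells, 15 members were tested within a fit over all types and 9772 genes. B cells had 9 members higher, where 30.7% of all genes were higher and 31.1% lower. Hist1h1a, a linker histone with few counts, stood at 9.38, 14.8, 12.4 and 14.6 CPM in B cells against 1.36, 1.55, 3.1 and 0.812 in gamma delta T cells. The groups did not overlap (log2 fold change 2.85, SE 0.47, edgeR quasi-likelihood adjusted p = 5.29e-06). Hist1h4i stood at 9.38, 26.6, 17.6 and 16.8 CPM against 6.11, 6.78, 3.25 and 3.25, also without overlap, with a log2 fold change of 2.10 (SE 0.27). Hist1h1b, Hist1h2ae, Hist1h2ap and Hist1h3e were higher by 1.54 to 1.16, and Hist2h2ac, Hist1h1c and Hist1h1e by 0.64 to 0.39. In cells with no Mki67 UMI, 12 members were tested and 5 were higher in B cells (30.5% of all genes were), led by Hist1h4i (2.02, SE 0.30).

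CD4 T cells had 4 members higher and 0 lower, against 8.40% and 8.12% of all genes: Hist1h1a (log2 fold change 3.72), Hist1h1b (3.31), Hist2h2bb (2.22) and Hist1h2ae (1.49). Their sums came from 42 to 88 cells per library, of which 2 to 4 were dividing. Hist1h1b stood at 147, 198, 369 and 0 CPM, so cystine replicate 2 lay apart from the rest. Leaving out control replicate 2 gave 1 higher member, leaving out cystine replicate 1 gave 2, and leaving out cystine replicate 2 gave 10, where 7.30%, 6.63% and 6.08% of all genes were higher. In cells with no Mki67 UMI 1 of 12 members, Hist1h1b, was higher, where 7.44% of all genes were. The calls in CD4 T cells were not tested without the single cells named above.

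CD8 alpha beta T cells had 1 member higher (19.6% of all genes) and 1 lower (17.6%). Hist3h2ba, an H2B gene of the third histone cluster, stood at 13.3, 14.6, 15.5 and 8.67 CPM against 7.69, 10.9, 4.58 and 5.69 in gamma delta T cells, with overlap between libraries and a log2 fold change of 0.87 (SE 0.26, edgeR quasi-likelihood adjusted p = 0.0078). Hist1h1e was lower, at -0.44 (SE 0.11), and neither passed without cystine replicate 1. Cd8a-only cells had 0 members called in edgeR's quasi-likelihood test, 0 at an unadjusted p below 0.05 and 0 in DESeq2, where 0.686% of all genes were higher and 0.113% lower.

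Plasmacytoid dendritic cells had 2 members higher and 8 lower, where 30.7% of all genes were higher and 35% lower. Hist2h2be, one of the members with a known polyadenylated message, stood at 15.2, 8.36, 20.04 and 11.6 CPM against 2.71, 4.84, 3.84 and 3.25 in gamma delta T cells. The groups did not overlap (log2 fold change 1.92, SE 0.31, edgeR quasi-likelihood adjusted p = 2.77e-06). Hist1h4i was higher by 0.80 (SE 0.32). The members that were lower included Hist2h2bb (-1.38), Hist2h2ac (-1.30), Hist1h1d (-1.16), Hist1h2ae (-1.11) and Hist1h4d (-0.99), with Hist1h1e and Hist1h1c at -0.53 and -0.51. With either cystine replicate left out, 6 members were called in all. Myeloid cells had Hist1h1e (-1.33) and Hist1h4d (-1.16) lower, where 24.9% of all genes were lower, and 1 of them passed without control replicate 1 or without cystine replicate 2.

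Dividing B cells were too few for a test, at 6, 1, 39 and 5 cells, of which 5, 1, 19 and 3 carried at least 2 germinal centre markers. Their summed level was 29.2, 109, 34.7 and 28.7 histone UMIs per 10000, against 17.4, 18.7, 20.8 and 17.6 in dividing T cells. The value of 109 rested on 1 cell.

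The diet comparison set the 2 cystine samples against the 2 controls. Over all kept cells the summed histone level was 2.88 and 2.96 UMIs per 10000 with the control diet, against 3.68 and 3.29 with cystine. The groups did not overlap, and the exact permutation test gave p = 0.333, the smallest that 2 against 2 allow. Without the barcode of cystine replicate 1 named above, that library stood at 3.50. In cells with no Mki67 UMI the values were 2.33 and 2.49 against 2.85 and 2.91. There the gap was largest in H1 genes, at 1.01 and 1.14 against 1.41 and 1.36. H2A genes stood at 0.446 and 0.399 against 0.472 and 0.550, and H3 genes at 0.128 and 0.165 against 0.190 and 0.203. H4 genes stood at 0.393 and 0.384 against 0.402 and 0.429. H2B genes overlapped, at 0.347 and 0.405 against 0.373 and 0.368. Within gamma delta T cells with no Mki67 UMI the summed values were 2.36 and 2.42 against 2.89 and 3.17, and within Cd8a-only cells 2.36 and 2.67 against 2.99 and 3.04. Among the other types with no Mki67 UMI, CD8 alpha beta T cells held 2.27 and 2.32 against 2.66 and 2.45, B cells 1.68 and 2.47 against 3.36 and 3.39, plasmacytoid dendritic cells 1.45 and 1.74 against 1.82 and 1.80, and myeloid cells 0.759 and 1.27 against 1.63 and 1.98. CD4 T cells went the other way, at 5.68 and 2.98 against 2.25 and 2.13, also without overlap. There 1 cell of control replicate 1 held 62 of 72 histone UMIs, and with the leading cell of each library left out the levels were 0.828 and 2.09 against 2.05 and 1.95.

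In dividing cells the groups overlapped, at 18.0 and 18.2 against 27.2 and 16.5. Within dividing gamma delta T cells they stood at 20.1 and 16.6 against 18.0 and 11.02, and within dividing Cd8a-only cells at 14.1 and 14.7 against 19.2 and 12.5, with overlap in both.

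No single member passed. Over all kept cells, 0 of 44 tested members differed in edgeR's quasi-likelihood test (3 at an unadjusted p below 0.05, and 0 in DESeq2), where 0.149% of all 14075 genes were higher and 0% lower. The members' median log2 fold change was 0.20, against 0.00 over all genes, and 31 of 44 were above 0. Leaving out cystine replicate 1, the median was -0.02 and 22 of 45 were above 0. Both cystine samples lay above both controls for 8 members (20.4% of all genes did so) and below for 6 (17.4%). Hist1h1e stood at 60.7 and 69.2 CPM with the control diet, against 88.1 and 80.7 with cystine, without overlap, for a log2 fold change of 0.38 (SE 0.13, edgeR quasi-likelihood adjusted p = 0.379). Hist2h2ac gave 0.44 (SE 0.16, adjusted p = 0.429) and Hist1h1a 0.99 (SE 0.38, adjusted p = 0.477). Without cystine replicate 2, 3 of 44 members were called higher, Hist1h1a, Hist1h1b and Hist1h3e, where 4.69% of all genes were higher and 1.50% lower. With a cystine sample left out, here and below, that arm is 1 sample, which the fit assumes to vary like the controls.

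Hist1h1e showed the same size of difference in both main T cell types, from the same 4 libraries. In gamma delta T cells it stood at 64.8 and 71.6 CPM against 87.0 and 91.7 (log2 fold change 0.39, SE 0.13, edgeR quasi-likelihood adjusted p = 0.488). In Cd8a-only cells it stood at 63.8 and 70.5 against 90.4 and 85.7 (0.39, SE 0.13, edgeR quasi-likelihood adjusted p = 0.933). Of 30 members tested in gamma delta T cells, 0 passed in edgeR's test, 4 had an unadjusted p below 0.05 and 0 were called by DESeq2. Over all genes there, 0.165% were higher and 0.0522% lower. Both cystine samples lay above both controls for 5 (17.7% of all genes) and below for 4 (17.5%). Hist1h4i stood at 6.52 and 7.31 CPM with the control diet and 3.49 in each cystine sample there (log2 fold change -0.98, SE 0.28, edgeR quasi-likelihood adjusted p = 0.343). Of 31 members in Cd8a-only cells 0 passed in edgeR's test, 3 had an unadjusted p below 0.05 and 0 were called by DESeq2, where 0.0771% of all genes were higher and 0% lower. Both cystine samples lay above both controls for 5 of the 31 (17.5% of all genes) and below for 4 (16.5%).

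In dividing cells 0 of 25 tested members passed in edgeR's quasi-likelihood test, 0 had an unadjusted p below 0.05 and 0 were called by DESeq2, and 0% of all 7912 genes were called in either direction. Of the 25, 21 had a log2 fold change above 0, with a median of 0.35. The median was 0.12 without the barcode of cystine replicate 1 and 0.06 without both barcodes. Hist1h3e stood at 46.8 and 86.0 CPM with the control diet, against 241 and 40.7 with cystine, so the groups overlapped, and it was called higher once cystine replicate 2 was left out (0.918% of all genes were). In CD8 alpha beta T (12 members tested), CD4 T (3), B (9) and plasmacytoid dendritic cells (5), 0 members passed in edgeR's test, with 0, 0, 1 and 0 at an unadjusted p below 0.05, and 0 in DESeq2. Over all genes, 0.249%, 0%, 0.152% and 0.0885% were higher in these types and 0.578%, 0%, 0.091% and 0.0147% lower. With cystine replicate 2 left out, Hist1h1b was called higher in B cells (0.440% of all genes) and in CD4 T cells (1.36%). With cystine replicate 1 left out it was called lower in CD4 T cells (0.444%). Both cystine samples lay above both controls for 1 of the 12 members in CD8 alpha beta T cells (19.9% of all genes), 5 of the 9 in B cells (17.5%) and 2 of the 5 in plasmacytoid dendritic cells (17%). They lay below both controls for 3 of the 12 (21.3%), 0 of the 9 (17.1%) and 0 of the 5 (16.6%) in the same types, and for 0 of 3 in either direction in CD4 T cells. No member passed the low-count filter in myeloid cells, where 0.0902% of all genes were higher and 0.0301% lower.

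Whether the dividing effect itself differed with diet was tested by an interaction term. Of 50 members, 0 passed in edgeR's quasi-likelihood test, 2 had an unadjusted p below 0.05 and 0 were called by DESeq2, where 0.0358% of all genes were higher and 0.0143% lower. Hist1h1b had a difference of -0.95 on the log2 scale (SE 0.34, edgeR quasi-likelihood adjusted p = 0.689). Leaving out control replicate 1 made it the single member called, and leaving out cystine replicate 2 added Hist1h3e to it.

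The cell composition of the libraries differed too. B cells made up 1.91% and 2.08% of kept cells with the control diet, against 11.6% and 5.26% with cystine. Of 7 Paneth cell genes 5 were higher in the cystine samples over all kept cells. Their summed level in cells without an Mki67 UMI was 0.202 and 0.105 UMIs per 10000 in the controls, each with 1 of 7 at 0, and 5.42 and 12.5 in the cystine samples, with none at 0. The part of either in the summed histone level was not tested, apart from the values within T cell types given above.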

How the data were processed

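Counts of UMIs per gene and cell were deposited by the authors as raw filtered matrices, 1 per sample. They come from 5′ libraries of polyadenylated RNA (10x Genomics, 18000 cells loaded per sample, per the labels' protocols). Cell Ranger 3.1.0, the build GRCm39 and Seurat 4.0.1 are named in the submitters' processing notes, while the file headers name Cell Ranger 7.0.1. The annotation behind the gene symbols and the strand setting are not given in the sources used here. No genome of that build was used, and sequences come from RefSeq (GRCm38.p6) and GENCODE vM21 transcripts.

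A cell was kept with 300 genes or more and no more than 10% of its UMIs from mitochondrial genes. Scrublet scores (scanpy 1.11.5) were ranked per library, and the top 0.8% per 1000 barcodes were removed. Types were set by marker UMIs, and not by clustering. Raw UMIs were summed per sample and class (at least 20 cells) and tested over all genes with edgeR 4.0.16 (filterByExpr with minimum counts of 10 and 15, TMM, glmQLFit, glmQLFTest; limma 3.58.1, R 4.3.3), with Benjamini-Hochberg adjustment. The sample was a block in comparisons within samples, and none was used for diet. DESeq2 1.42.0, other filters and scalings, thinning to 1000 UMIs (seed 1) and leaving out each replicate were the alternatives. Those without the epithelial-marker cells, without 1 or 2 barcodes, without the leading CD4 T cell of each library, T cells only for phase and diet, and without Mki67 cells for the diet comparison were added after the data were seen. Summed levels were compared by exact permutation (scipy 1.17.1), and the fits were checked on simulated data.

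The members and lists were chosen with earlier results of these data known. Named with values are the 20 members with most UMIs in dividing cells among those tested, members called in a diet comparison, and up to 4 genes of each list by UMIs. Other members and list genes named were chosen after their values were seen. Plasma cells and dividing B cells were too few per sample for a fit. PCR duplicates are collapsed by UMI, and intervals cover counting error only.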

Additional observations from a re-analysis of the deposited data

How the results depend on the processing

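Over single members, 1071 values kept their direction and their side of the threshold, 50 lost a call, 38 gained one and 16 changed sign, none of these past the test before or after. In dividing cells the log2 fold change of Hist2h2be (0.07) became -0.00927 with no low count filter, -0.064 with doublets not removed, -0.42 with Top2a in place of Mki67 and -0.24 when thinned, while Hist2h4 became -0.73 and Hist3h2a 0.95 when thinned. With 1 library left out, Hist1h2be ranged from -0.0092 to 0.99, Hist2h2be from -0.077 to 0.21 and Hist3h2ba from -0.41 to 0.22. In S-leaning cells Hist1h3f ranged from -2.43 to 0.091, Hist1h2ak from -0.38 to 0.33 and Hist1h3e from -0.93 to 0.48. In the diet comparison of dividing cells Hist1h1e ranged from -0.072 to 0.74. Members higher in dividing cells numbered 36, 33 to 38 with 1 library left out, and 15 when thinned to 1000 UMIs with the classes set again. The share of cells with a histone UMI differed by 25.1 percentage points unthinned, against 16.2 thinned (14.7 to 18.1 with 1 library left out). Members lower in S-leaning cells numbered 1, then 2 with DESeq2's Wald test, 6 with doublets not removed, 7 with no low count filter, 0 with the strict cell filter, 8 in T cells only, 9 without cells with an epithelial marker, 2 without the 2 barcodes, and 0 to 3 with 1 library left out. Against gamma delta T cells, the calls in B cells (9) became 5 in cells with no Mki67 UMI and 15 with no filter. Those in CD4 T cells (4) became 1 in cells with no Mki67 UMI, 8 with DESeq2's Wald test, 8 with no filter and 1 to 10 with 1 library left out. Those in CD8 alpha beta T cells (2) became 1 with the strict filter and 0 to 3 with 1 library left out, and Cd8a-only cells (0) gained 1 with no filter. Those in myeloid cells (2) became 1 with DESeq2's Wald test, 4 with no filter and 1 to 2 with 1 library left out, and those in plasmacytoid dendritic cells (10) became 6 to 9 with 1 library left out. For diet, leaving out 1 library gave 0 to 3 calls over all kept cells, 0 to 1 in dividing cells, in B cells and in CD4 T cells, and 0 to 2 for the interaction. The diet arm that lost a sample is then 1 sample, assumed to vary like the other. With no filter the dividing cells and the interaction each had 1 call. In CD4 T cells with no Mki67 UMI, cystine minus control was -2.14 histone UMIs per 10000 (-3.49 to -0.79 with 1 library left out) and became 0.538 without the cell with most histone UMIs in each library. The number of members tested and the share of all genes called also change with the setting. The counts of members in this paragraph therefore do not measure a change in the members. The cause of these shifts was not tested. Depth limits the members with few UMIs: 22 of 66 could not be tested.

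Both diets have replicates numbered 1 and 2. Deviations of same-numbered samples had a correlation of 0.042 over 12479 genes with at least 100 UMIs, so the numbers were not taken as pairs. This is 1 value over all these genes, and it cannot exclude that same-numbered samples vary together in some of them. With the replicate block, 0 members were called over all kept cells or in dividing cells, while over all genes the calls went from 21 higher and 0 lower to 365 and 38 in all kept cells, and from 0 to 103 higher and 11 lower in dividing cells. Without the sample term, 36 members were higher in dividing cells.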

Other observations

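Plasma cells, set by Jchain, Mzb1 or Sdc1, and Xbp1, numbered 7, 5, 57 and 24 in control replicates 1 and 2 and cystine replicates 1 and 2 and entered no test. Their summed histone level was 20.9, 0.947, 11.3 and 4.98 UMIs per 10000. In plasma cells with no Mki67 UMI it was 0.405, 0.947, 0.814 and 0.973. Of the plasma cells, 3, 0, 14 and 3 had an Mki67 UMI, so the levels over all plasma cells followed the dividing ones.

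Barcodes with both T and B markers numbered 152, 52, 956 and 224 and held 5.57, 4.42, 5.74 and 3.01 histone UMIs per 10000. The third barcode by histone UMIs was a CD4 T cell of cystine replicate 1 with 117 histone UMIs of 7293 (1.60%), spread over 21 members, in a library where CD4 T cells with an Mki67 UMI numbered 2.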
